A study of Homo sapiens with 6 samples.

Results

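The apoptosis regulators and caspases BCL2, BCL2L1, MCL1, BCL2L11, BIRC2, BIRC3, BIRC5, XIAP and CASP8 were examined in K1 cells after knockdown of the long non-coding RNA NEAT1_2. They were taken by gene symbol as members of the BCL2 family, of the inhibitor of apoptosis proteins and of the caspases, and each symbol matched 1 row, so that 9 of 19684 annotated genes were found. K1 is an established human cell line from a papillary thyroid carcinoma. mRNA-seq was performed on 3 libraries from cells transfected with a negative control siRNA (NC) and on 3 libraries from cells transfected with an siRNA against NEAT1_2 (si-NEAT1_2). All 6 libraries came from the same line and all cells had been transfected, and no untransfected cells were analysed here. The labels give no dose or time after transfection and do not say whether replicates were separate cultures, so p-values measure the spread between these libraries, which may be technical. NEAT1 itself was not analysed here, and the extent of the knockdown was therefore not measured in these libraries. The authors also deposited a table with 1 expected count and 1 FPKM value (fragments scaled for transcript length and library size) per gene for each group, called the group table below, which carries no replicates. Values of single libraries are given below in the order of replicates 1, 2 and 3.

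Cells die by apoptosis along an intrinsic and an extrinsic route. In the intrinsic route BCL2-like survival proteins hold back the pore-forming proteins BAX and BAK1 at the mitochondrion, and BH3-only proteins release this block, after which cytochrome c leaves the mitochondrion and caspases are activated. In the extrinsic route ligands of the TNF family bind death receptors and activate caspase-8. Inhibitor of apoptosis (IAP) proteins block caspases or attach ubiquitin chains in the TNF receptor complex, where they steer the cell towards NF-kB signalling. Carcinoma cells, those of the thyroid included, commonly carry high levels of survival proteins.

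The total expected count ranged from 22798631 to 27066025 per library, and each of the 9 genes was counted at least 186 times in every library. K1 libraries held the epithelial keratins KRT8 and KRT18 and the thyroid transcription factor PAX8 at 1240, 422 and 133 FPKM on average in NC. The thyroid genes TSHR and NKX2-1 were under 1 FPKM in every library, and so were KRT19 and CDH1 among 5 epithelial markers. Of 5 leukocyte markers all but CD68 were under 1 FPKM in every library, as were all 3 endothelial markers. Of 4 fibroblast markers COL1A2 and DCN were under 1 FPKM in every library, while LUM reached 24.1 FPKM in NC and 17.6 FPKM in si-NEAT1_2 libraries on average. The summed leukocyte markers, nearly all from CD68, were at 11.6 to 13.2 FPKM in NC and at 14.95 to 19.7 FPKM in si-NEAT1_2 libraries. Their part in the results below was not tested.

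Because the study centres on miR-491, the mature miRNA and its matches in the 9 genes were read from RefSeq and GENCODE release 29. In the sequence of hsa-miR-491-5p (chr9:20716120-20716141, plus strand, GRCh38.p14) capitals mark the seed, bases 2 to 8. In the 3 stretches of 3′ untranslated region that follow, capitals mark the heptamer complementary to this seed, and each stretch is written in the sense of the mRNA.
hsa-miR-491-5p: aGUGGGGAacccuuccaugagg
BCL2L1: tccccccactcTCCCCACactaacctggg
MCL1: gtgaccctcccTCCCCACcaagagtccac
BCL2L11: ctgtacagcccTCCCCACgccccacccat
The heptamer TCCCCAC lies at bases 450 to 456 of the BCL2L1 3′ untranslated region, at bases 1658 to 1664 in MCL1 and at bases 3757 to 3763 in BCL2L11, counted from 1 after the stop codon of the longest coding transcript. It was found in none of the other 6 genes. Of 19141 genes with a 3′ untranslated region in GENCODE, 16.7% hold the heptamer. The 3 genes with a match had log2 fold changes of 0.06, -0.16 and 0.12, which are described below, and a match in these letters measures no binding.

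Among the survival proteins, BCL2L1 was the most abundant of the 9 transcripts. BCL2L1 (ENSG00000171552, chromosome 20 from 31664452 to 31723989, minus strand, GRCh38) encodes BCL-xL, which binds BAX, BAK1 and BH3-only proteins at the mitochondrion. The NC libraries had FPKM values of 127.86, 104.93 and 118.99 and the si-NEAT1_2 libraries had 108.05, 109.21 and 125.2. The ranges overlapped, with the highest and the lowest of the 6 values both in NC. In TMM-normalized CPM (counts scaled to a common library size), the level was 255 ± 26.2 (SD, n = 3) in NC and 266 ± 26.9 (SD, n = 3) in si-NEAT1_2. The fit gave a log2 fold change of 0.06 with a 95% interval from -0.23 to 0.35 (adjusted p = 0.790, edgeR's quasi-likelihood test).

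MCL1, a short-lived survival protein, was the next most abundant. MCL1 (ENSG00000143384) is located on chromosome 1 (150574551 to 150579738, minus strand). In NC its FPKM was 65.6, 67.97 and 58.35, against 60.82, 47.55 and 56.68 in si-NEAT1_2. The si-NEAT1_2 libraries held the 2 lowest values, but replicate 1 of that group lay within the NC range. Normalized CPM was 244 ± 16.2 (SD, n = 3) and 218 ± 17.0 (SD, n = 3), with a log2 fold change of -0.16 (SE 0.120, adjusted p = 0.397, edgeR).

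BCL2 itself, the founding member of the family, was expressed at a low level. BCL2 (ENSG00000171791) is located on chromosome 18 (63123346 to 63320128, minus strand). CPM values were 23.5, 28.6 and 23.9 in NC, and in si-NEAT1_2 they were 22.7, 16.2 and 20.0. All 3 si-NEAT1_2 libraries therefore lay below all 3 NC libraries, although the nearest values, 22.7 and 23.5, were close. The level was 25.3 ± 2.85 (SD, n = 3) in NC and 19.6 ± 3.26 (SD, n = 3) in si-NEAT1_2. This was a log2 fold change of -0.37 (SE 0.167, unadjusted p = 0.0508, adjusted p = 0.205, edgeR). In FPKM the groups overlapped, since si-NEAT1_2 replicate 1 had 4.45 while NC replicates 1 and 3 had 4.18. Of the summed FPKM of BCL2, BCL2L1 and MCL1, BCL2L1 made up 59.1% to 65.6% in NC and 62.3% to 68.7% in si-NEAT1_2 libraries, and BCL2 made up 1.41% to 2.68% over all 6.

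BCL2L11 encodes BIM, a BH3-only protein that binds all BCL2-like survival proteins, and was the least abundant of the 9 genes. BCL2L11 (ENSG00000153094) is located on chromosome 2 (111119378 to 111168447, plus strand), with 25 annotated transcripts. The NC libraries had CPM values of 9.95, 7.91 and 9.52 and the si-NEAT1_2 libraries had 9.74, 8.18 and 11.9. The groups overlapped, and both second replicates were the lowest of their group. On the log2 scale the difference was 0.12 (SE 0.196, adjusted p = 0.702, edgeR).

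**Figure D1:**
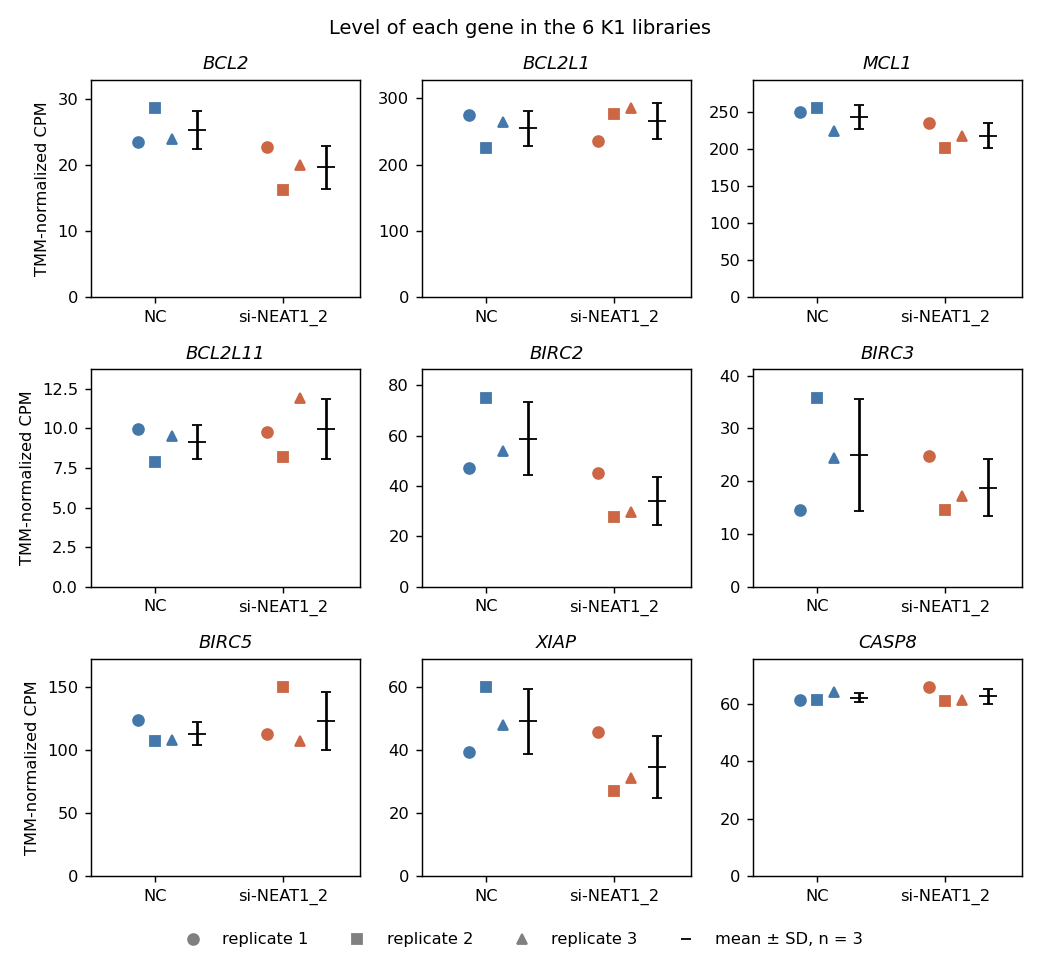
Each panel plots the TMM-normalized CPM of 1 gene (linear axis from 0) in the 3 NC and 3 si-NEAT1_2 libraries, with symbols for replicate numbers and black bars for the mean ± SD of 3 libraries. BIRC2 and BCL2 are the 2 genes whose groups do not overlap. In all genes but BCL2, MCL1 and BIRC2 the first replicates of the groups lie in the opposite order to the second replicates.

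Of the 4 IAP genes, BIRC2 showed the largest difference of the 9 genes. BIRC2 encodes cIAP1, a ubiquitin ligase that acts on RIPK1 in the TNF receptor complex and also on NF-kB inducing kinase. The gene (ENSG00000110330) is located on chromosome 11 (102347211 to 102378670, plus strand). In NC its CPM was 47.4, 75.1 and 53.9, against 45.1, 27.8 and 29.7 in si-NEAT1_2. Every si-NEAT1_2 library was below every NC library, but si-NEAT1_2 replicate 1 was close to NC replicate 1. The level was 58.8 ± 14.5 (SD, n = 3) in NC and 34.2 ± 9.49 (SD, n = 3) in si-NEAT1_2, a difference of -41.8% in the fit. The log2 fold change was -0.78, with a 95% interval from -1.26 to -0.30 and an unadjusted p of 0.00450, but the adjusted p over all genes was 0.169 (edgeR's quasi-likelihood test), so that BIRC2 did not pass the threshold.

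The BIRC2 result depended on single libraries and on the test. Without si-NEAT1_2 replicate 1, BIRC2 was called, with a log2 fold change of -1.03 and an adjusted p of 0.0394 (edgeR), in a fit that called 2.63% of all genes. Without NC replicate 2 the log2 fold change was -0.57. With DESeq2 the adjusted p was 0.0298 at a log2 fold change of -0.79, short of a 2-fold change. The labels carry a code, L2, L3 or L4, whose meaning they do not give. The difference in log2 CPM was -1.19 between the libraries coded L2 (NC replicates 2 and 3, si-NEAT1_2 replicate 2) and -0.67 between those coded L3 (NC replicate 1, si-NEAT1_2 replicate 3), while L4 held si-NEAT1_2 replicate 1 alone.

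XIAP, which encodes the IAP that binds and blocks caspases directly, was lower on average in si-NEAT1_2 libraries with overlapping groups. The gene (ENSG00000101966) is located on chromosome X (123859724 to 123913979, plus strand). CPM values were 39.5, 59.9 and 47.9 in NC, and in si-NEAT1_2 they were 45.6, 27.1 and 31.2. Only si-NEAT1_2 replicate 1 lay within the NC range. Its log2 fold change came to -0.50 (SE 0.212, unadjusted p = 0.0377, adjusted p = 0.187, edgeR). Without si-NEAT1_2 replicate 1 the adjusted p was 0.0415, in a fit where 10.4% of all genes had an adjusted p under 0.05, and the log2 fold change of -0.75 stayed short of a 2-fold change. BIRC8, an intronless copy of XIAP with which reads could be shared, had at most 3 counts in any library.

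BIRC3 encodes cIAP2, the close relative of cIAP1, and lies beside BIRC2 on chromosome 11, from 102317450 to 102339403 on the plus strand (ENSG00000023445). The NC libraries had CPM values of 14.6, 35.8 and 24.3 and the si-NEAT1_2 libraries had 24.7, 14.5 and 17.1. The highest and the lowest of the 6 libraries, NC replicate 2 and si-NEAT1_2 replicate 2, differed 2.47-fold, and NC replicate 1 was nearly as low as the lowest. For the groups the log2 fold change was -0.41 (SE 0.296, adjusted p = 0.386, edgeR). Leaving out NC replicate 2 gave -0.05 and leaving out NC replicate 1 gave -0.70, while the fits without replicate 1 or 2 of si-NEAT1_2 gave -0.65 and -0.26. Within the libraries coded L2 the difference in log2 CPM was -1.03, and within those coded L3 it was 0.23. The FPKM of BIRC2 was 3.42 to 5.30 times that of BIRC3 in NC and 2.92 to 4.28 times in si-NEAT1_2 libraries.

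BIRC5 encodes survivin, an IAP that is made in dividing cells and serves in the chromosomal passenger complex. BIRC5 (ENSG00000089685) is located on chromosome 17 (78214186 to 78225636, plus strand). In NC its CPM was 124, 107 and 108, against 113, 150 and 108 in si-NEAT1_2. The highest value was in si-NEAT1_2 replicate 2, and the other 2 libraries of that group lay at NC levels. The difference on the log2 scale was 0.13 (SE 0.148, adjusted p = 0.596, edgeR), and it was -0.04 without si-NEAT1_2 replicate 2.

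CASP8, the initiator caspase of the extrinsic route, was the steadiest of the 9 genes. CASP8 (ENSG00000064012) is located on chromosome 2 (201233443 to 201287711, plus strand). CPM values were 61.2, 61.1 and 64.1 in NC, and in si-NEAT1_2 they were 65.7, 60.9 and 61.3. The highest library exceeded the lowest 1.08-fold. Between the groups the log2 fold change was 0.01, with a 95% interval from -0.25 to 0.27 (adjusted p = 0.960, edgeR).

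Levels of different genes were compared in FPKM, which allows for transcript length. From the highest to the lowest mean over 6 libraries the order was BCL2L1 (115.7), MCL1 (59.5), BIRC5 (45.3), CASP8 (31.1), BIRC2 (15.9), XIAP (6.13), BIRC3 (4.42), BCL2 (3.90) and BCL2L11 (2.60), a 44.5-fold span. The ranges over libraries overlapped in 4 of the 8 neighbouring pairs. These were MCL1 with BIRC5, XIAP with BIRC3, BIRC3 with BCL2, and BCL2 with BCL2L11. BCL2L1 ranked above 94.2% of all genes tested and BCL2L11 above 24.0%.

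Over the 9 genes together, 0 were called at a fold change of 2 or more with an adjusted p under 0.05 in edgeR's quasi-likelihood test, as for all 12581 genes tested (0.0%). At an unadjusted p under 0.05 there were 2 genes, BIRC2 and XIAP, both lower in si-NEAT1_2 libraries, against 24.5% of all genes tested and 13.2% in the lower direction. BIRC2 was the 1 gene of the 9 with an adjusted p under 0.05 in DESeq2, where 3.95% of the genes given an adjusted p had one that low, and also in edgeR's exact test, where 2.53% did, and 0 of the 9 were called with the fold change included. The groups did not overlap in normalized CPM in 2 genes, BCL2 and BIRC2, both lower, against 30.0% of all genes tested and 14.3% in the lower direction. The median log2 fold change was -0.16 over the 9 genes and 0.01 over all genes tested, with 5 of the 9 below 0 against 49.2% of all genes.

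**Figure D2:**
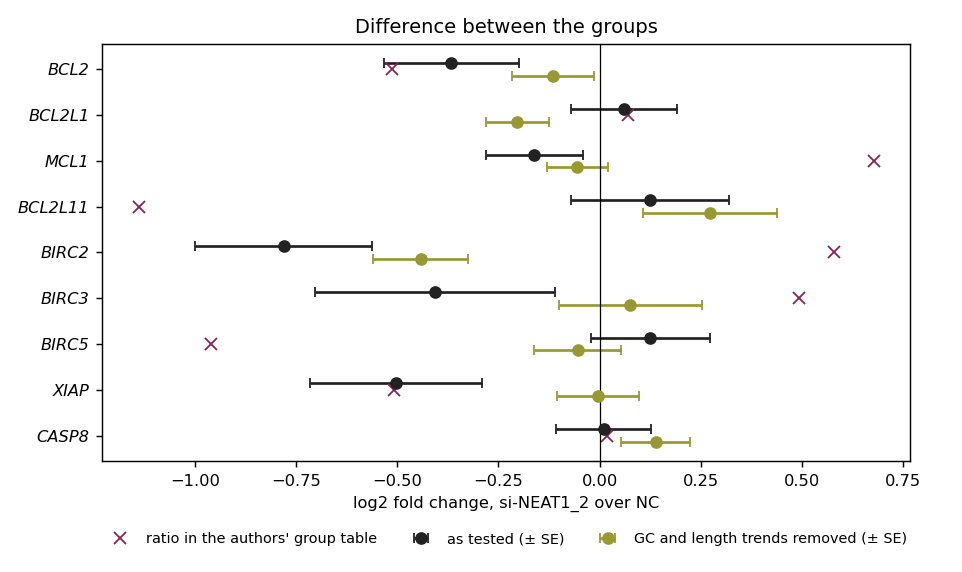
The log2 fold change of si-NEAT1_2 over NC is plotted for each gene as tested (black), with the GC and length trends removed (olive, both with bars of ± SE from edgeR, 3 libraries per group) and as the ratio of FPKM in the group table (crosses, no replicates). BIRC2 keeps a value below 0 in both fits and lies above 0 in the group table, while XIAP moves from -0.50 to about 0.

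Fold changes over all genes moved with base composition. Over the 12581 genes tested, the log2 fold change had a Spearman's rho of 0.629 with the GC content of the longest transcript and of -0.504 with its length, across genes, which are not independent replicates. The median log2 fold change was -0.40 for genes of at most 40% GC and 0.29 for those above 60%. BIRC3, BIRC2 and XIAP, at 34.8%, 38.0% and 39.0% GC, had log2 fold changes of -0.41, -0.78 and -0.50, while BIRC5 and BCL2L1, at 52.2% and 56.9%, had 0.13 and 0.06. The other 4 genes, at 42.6% to 45.7% GC, lay on both sides of their class medians of -0.20 and -0.02. CASP8 and BCL2L11 were above them at 0.01 and 0.12, and MCL1 and BCL2 below at -0.16 and -0.37.

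The test was repeated with trends of GC content and length removed from each library, an alternative chosen after seeing the data. The log2 fold change of BIRC2 was then -0.44 (SE 0.118, unadjusted p = 0.00345, adjusted p = 0.179, edgeR). In this fit 8.08% of all genes were lower at an unadjusted p under 0.05. XIAP was then at -0.0038 (unadjusted p = 0.970) and BIRC3 at 0.08 (unadjusted p = 0.676). BCL2 came to -0.11 and MCL1 to -0.06. BCL2L1 came to -0.20 (unadjusted p = 0.0265, adjusted p = 0.257, edgeR). BCL2L11 was at 0.27, CASP8 at 0.14 and BIRC5 at -0.05, each with an unadjusted p above 0.05.

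**Figure D3:**
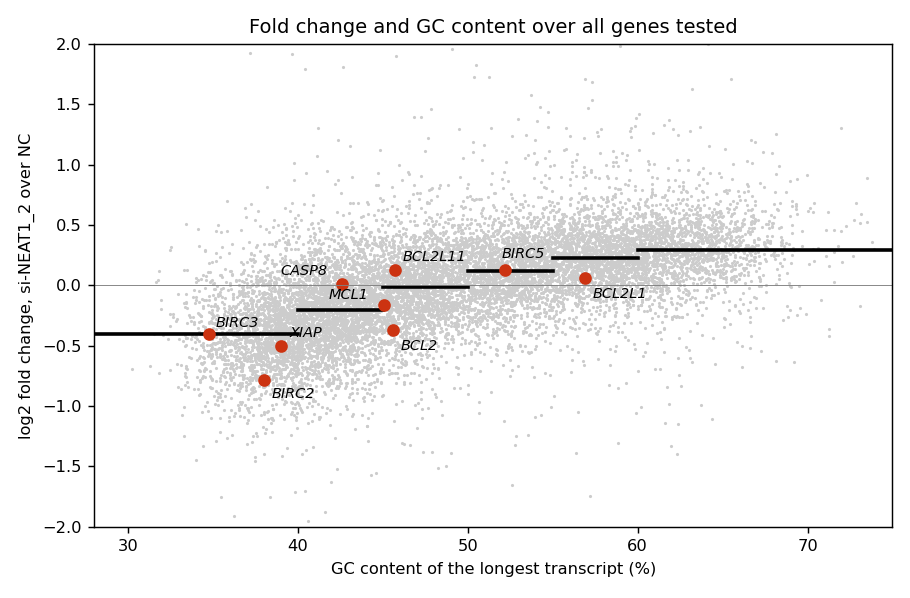
Each grey point is 1 of 12581 genes, with the GC content of its longest transcript (%) on the horizontal axis and its log2 fold change of si-NEAT1_2 over NC on the vertical axis, where 6 genes beyond ±2 are not drawn. Black lines are medians of 6 GC classes, which rise from -0.40 to 0.29, and red points are the 9 genes, of which BIRC2 lies farthest below its class.

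The ratio of an expected count to its FPKM, scaled by the library total, gives the transcript length implied for a gene in that library. What moves this length between libraries, such as the mix of isoforms or the fragment lengths, was not tested. For BIRC2 it was 2137 bases in si-NEAT1_2 replicate 2 and 2945 to 3166 bases in the other 5 libraries. For XIAP it ranged from 5119 to 8582 bases, a 1.68-fold span, above that of 98.0% of 8719 genes, whose median span was 1.07-fold. BCL2L11 spanned 3273 to 5036 bases, with the highest in NC replicate 2. In MCL1 and BIRC5 the span was 1.02-fold and 1.04-fold. The log2 CPM used in the tests does not carry this length, whereas FPKM does. In FPKM, XIAP was at 2.91 in si-NEAT1_2 replicate 2 against 5.65 to 8.13 elsewhere.

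Other genes of the pathway were described from lists of 59 genes, of which 51 were tested. With edgeR 0 were called, and 20 of the 51 (39.2%) had an unadjusted p under 0.05, against 24.5% of all genes tested. Of the 51 genes, 13 were higher and 7 lower at this threshold, where 11.3% and 13.2% of all genes were. The 13 higher genes had a median GC content of 54.8% and the 7 lower ones of 42.2%. With the GC and length trends removed 13 of the 51 genes had an unadjusted p under 0.05, against 16.3% of all genes. Of the 51 genes, 8 were then higher and 5 lower, where 8.24% and 8.08% of all genes were. In 6 alternative fits, DESeq2 and the exact test of edgeR among them, 1 gene was called.

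Among the pore-forming effectors 2 of 3 had an unadjusted p under 0.05, both higher. Of all genes tested, 11.3% were higher at this threshold. BAX was at 164 ± 18.7 FPKM (SD, n = 3) in NC and 206 ± 35.7 FPKM (SD, n = 3) in si-NEAT1_2 libraries, with a log2 fold change of 0.40 (adjusted p = 0.187, edgeR). BAK1 was at 0.37 (adjusted p = 0.178). With the trends removed these were -0.03 and 0.04. Of the remaining survival proteins, BCL2L2 and BCL2A1 had log2 fold changes of -0.08 and 0.20, with adjusted p-values of 0.730 and 0.556. BCL2L2 overlaps the readthrough gene BCL2L2-PABPN1, which had up to 221 counts.

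Of 8 BH3-only genes tested besides BCL2L11, 4 had an unadjusted p under 0.05, all higher, where 11.3% of all genes tested were higher. BID, which caspase-8 cleaves to link the extrinsic to the intrinsic route, was at 55.9 ± 2.36 FPKM (SD, n = 3) in NC and 74.0 ± 10.9 FPKM (SD, n = 3) in si-NEAT1_2 libraries, with a log2 fold change of 0.34 (adjusted p = 0.186, edgeR). BNIP3, a hypoxia-induced mitophagy receptor, was at 0.18 (adjusted p = 0.341). With the trends removed 2 of the 8 were higher at this threshold, BMF and PMAIP1 (0.44), against 8.24% of all genes. BID was then at 0.19 and BNIP3 at 0.06, each with an unadjusted p above 0.05 (edgeR). BMF, chosen after its values were seen, had the largest difference of the list, at 2.47 ± 0.508 FPKM (SD, n = 3) in NC and 5.07 ± 2.28 FPKM (SD, n = 3) in si-NEAT1_2 libraries. Its log2 fold change was 1.11 (adjusted p = 0.169, edgeR), and 1.02 with the trends removed. BMF was the gene called with DESeq2 (adjusted p = 0.00355) and with the exact test (adjusted p = 0.00512), and also without a filter, without si-NEAT1_2 replicate 2 and without both second libraries. The group table listed BMF in the opposite direction, at 1.56 FPKM for NC and 0.933 FPKM for si-NEAT1_2.

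Both IAP genes tested besides the 4 above had an unadjusted p under 0.05 and were lower, as were 13.2% of all genes tested. BIRC6, a very large IAP that also conjugates ubiquitin, was at 9.59 ± 3.60 FPKM (SD, n = 3) in NC and 4.58 ± 2.22 FPKM (SD, n = 3) in si-NEAT1_2 libraries. Its log2 fold change was -0.90 (adjusted p = 0.169, edgeR) and -0.50 with the trends removed, and it was called without si-NEAT1_2 replicate 1. NAIP, which lies in a duplicated region and whose reads may be split among copies, was at -1.26 (adjusted p = 0.170) with 16 to 100 counts per library. Of the IAP antagonists and apoptosome genes, DIABLO and CYCS had log2 fold changes of 0.21 and -0.09 (adjusted p = 0.435 and 0.720), and 1 of 4 tested genes was lower at an unadjusted p under 0.05. Once the trends were removed, none of the 4 was, and CYCS was at 0.16.

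Around CASP8, the initiator caspases and their inhibitor CFLAR gave 2 of 4 genes higher at an unadjusted p under 0.05 and none lower. Of all genes tested, 11.3% were higher and 13.2% lower at this threshold. CFLAR, the catalytically inactive partner of caspase-8, came to -0.15 on the log2 scale (adjusted p = 0.444, edgeR) and CASP2 to -0.09. Of 9 death receptor genes tested, 3 were higher and 1 lower at this threshold. TNFRSF10B, a receptor for the ligand TRAIL, was at 0.32 and TNFRSF1A, the main TNF receptor, at 0.27 (adjusted p = 0.177 and 0.203). With the trends removed 1 of the 9 was higher and 2 were lower, against 8.24% and 8.08% of all genes. TNFRSF10B was then at 0.29, TNFRSF1A at -0.04, CFLAR at 0.27 and CASP2 at 0.15. Of 5 executioner caspase and nuclease genes 1 was lower, with DFFA, the inhibitor of the caspase-activated nuclease, at 0.19. CASP4 and CASP1 of the inflammatory caspases were at 0.09 and -0.33, each with an adjusted p above 0.5. Once the trends were removed, DFFA was at 0.33, CASP4 at 0.46 and CASP1 at -0.25. RIPK3, the necroptosis kinase, was listed at 0 in every library, and MLKL was at 0.21 (adjusted p = 0.421).

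Of 11 genes listed with cIAP1 and cIAP2 around the TNF receptor complex, 2 were higher and 2 lower at an unadjusted p under 0.05. Of all genes tested, 11.3% were higher and 13.2% lower. The linear ubiquitin ligase subunits RBCK1 and SHARPIN had log2 fold changes of 0.18 and 0.36 (adjusted p = 0.382 and 0.211, edgeR). With the trends removed 1 of the 11 was higher and none lower, and these subunits were at -0.12 and -0.08. Among 10 NF-kB targets outside apoptosis 5 were higher and none lower, against 11.3% and 13.2% of all genes tested. These 5 were ICAM1 (0.94), CCL2 (0.77), CXCL8 (0.51), RELB (0.44) and NFKB2 (0.42). All 10 log2 fold changes were above 0 in this fit, while 49.2% of all genes were below 0. Of the 5, the group table listed CCL2 lower for si-NEAT1_2 (40.8 FPKM for NC and 6.78 FPKM for si-NEAT1_2). It listed ICAM1, CXCL8, RELB and NFKB2 higher. SOD2 and CXCL1, the most abundant of the 10, were at 0.07 and 0.04 and not among the 5. With the trends removed 4 of the 10 were higher and none lower, against 8.24% and 8.08% of all genes. These were ICAM1 (0.75), CCL2 (0.74), CXCL8 (0.72) and SOD2 (0.58), while RELB and NFKB2 came to 0.08 and 0.17. NFKBIA, NFKB1 and CXCL1 were then below 0, at -0.0060, -0.02 and -0.10. Among 12 mitotic partners of BIRC5 none was higher and 4 were lower, against 11.3% and 13.2% of all genes tested. These 4 were TOP2A (-0.63), MKI67 (-0.69), TTK (-0.59) and CENPE (-0.99). Of the 12 log2 fold changes, 6 were above 0 and 6 below. CDC20 and CCNB1, the most abundant of the 12, were at 0.26 and 0.15 (adjusted p = 0.257 and 0.512, edgeR). Once the trends were removed, 3 of the 12 were lower, MKI67 (-0.48), TTK (-0.34) and INCENP (-0.50), against 8.08% of all genes. TOP2A and CENPE were then at -0.21 and -0.43, each with an unadjusted p above 0.05 (edgeR). CDC20 was at -0.12 and CCNB1 at 0.17.

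BIRC3 is known as a target of NF-kB, and its promoter was searched for kappa B motifs on both strands of the RefSeq promoter sequence, which runs from 250 bases before to 50 bases after the start. BIRC3 held 2 matches, at chr11:102317285-102317294 and chr11:102317349-102317358 (GRCh38.p14, plus strand shown), and 11.27% of 35116 promoters held at least 1. BIRC2, its neighbour, held no kappa B match but a cyclic AMP response element, TGACGTCA, at chr11:102347207-102347214, a motif found in 1.85% of promoters. Capitals mark the matches.
BIRC3 upstream match: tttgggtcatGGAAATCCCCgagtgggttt
BIRC3 downstream match: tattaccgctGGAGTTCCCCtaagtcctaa
BIRC2 response element: gccgggcgcgcTGACGTCAtcgtgcgtcag
These matches are a description of the letters, and BIRC3 and BIRC2 had log2 fold changes of -0.41 and -0.78.

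For each gene, the 2 genes whose log2 CPM followed it most closely over the 6 libraries were sought among 10226 genes with a mean CPM of at least 5. For BIRC2 these were SERINC1 and STXBP3, with a Pearson's r of 0.9997 and 0.9993, and 745 genes exceeded 0.95. For XIAP they were SLC36A4 and MOB1B, both with r of 0.997, and 746 genes exceeded 0.95. For BCL2 they were FAM122B and IPO7, both with r of 0.9998, among 1147 genes above 0.95. All 6 genes named here had a GC content between 34.3% and 43.4%, below the median of 48.0% over all genes tested. MCL1 was followed by RAP2A (0.994) and TRMT10A (0.993), BCL2L1 by SLC35C1 (0.997) and TRIB3 (0.985), and BCL2L11 by XPO6 (0.999) and TOB2 (0.990). BIRC3 was followed by SREK1IP1 (0.995) and MORC4 (0.990), BIRC5 by HNRNPM and CISD1 (0.994 each), and CASP8 by GALNT4 (0.934) and GINS4 (0.930), with no gene above 0.95. These values describe 6 libraries that share the GC trend.

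The group table gave other values than the libraries. For BCL2 it listed 0.480 FPKM for NC and 0.337 FPKM for si-NEAT1_2, so that the mean of the 6 libraries was 9.54-fold higher. BCL2 was the only one of the 9 genes at least 2-fold apart, against 34.1% of all genes, and 3.96% of all genes were at least 8-fold higher in the libraries. For the remaining 8 genes the mean of the libraries was between 0.598 (BIRC2) and 1.96 (BCL2L11) times the mean of the group table. The NC value of the group table lay outside the range of the 3 NC libraries in 5 of the 9 genes (85.8% of all genes), and the si-NEAT1_2 value in 8 of the 9 (79.8% of all genes). From which libraries the group table was made cannot be told from the values of these genes.

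The FPKM ratio of the group table had the opposite sign to the log2 fold change fitted on the library counts in 5 of the 9 genes, and to the difference of the mean library FPKM in 6 of the 9, BCL2L1 being the additional one. Of the 9, 4 were listed lower for si-NEAT1_2, against 65.1% of all genes. BIRC2 was listed at 21.4 FPKM for NC and 31.9 FPKM for si-NEAT1_2, an increase of 49.3%, while it was lower in every si-NEAT1_2 library than in every NC library. MCL1 was listed at 59.6 and 95.3, an increase of 59.9%, and in the si-NEAT1_2 column it stood above BCL2L1, at 70.2, as in no library. BIRC5 was listed at 54.1 and 27.8, a decrease of 48.6%, and BCL2L11 at 1.83 and 0.830. BCL2L11 was the only one of the 9 with a ratio of at least 2 in the group table, against 20.2% of all genes. BIRC3 was listed at 5.07 and 7.13. XIAP (4.67 and 3.29), BCL2 and CASP8 (18.7 and 19.0) had the direction of the libraries in both units. BCL2L1 (66.9 and 70.2) had that of the fit on counts, but its library means in FPKM, 117 and 114, were in the opposite order.

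**Figure D4:**
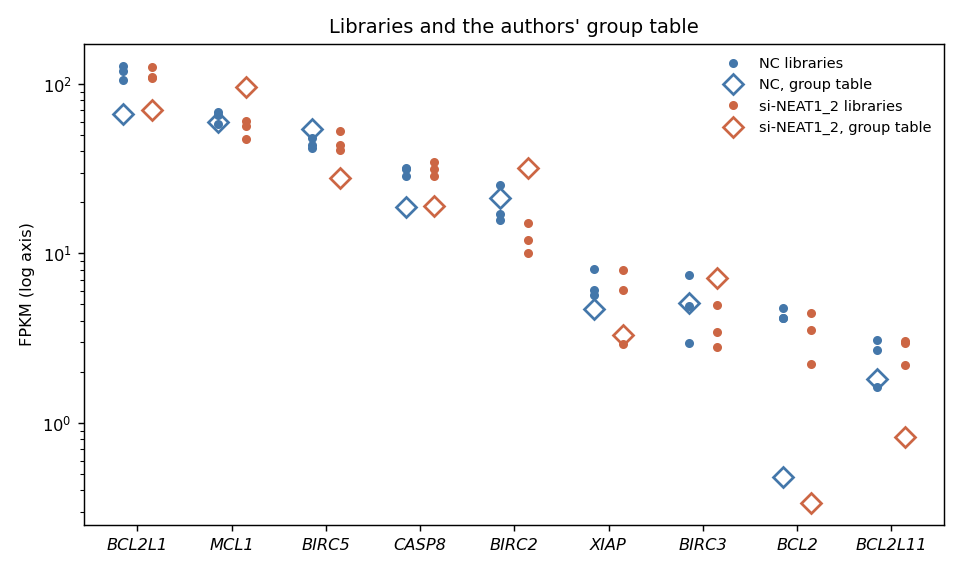
FPKM on a log axis is plotted for each gene, ordered by its mean over the 6 libraries, with filled points for the libraries and open diamonds for the group table (blue NC, orange si-NEAT1_2). The diamonds of BCL2, at 0.480 and 0.337, lie far below its libraries, and those of BIRC2 are ordered opposite to its libraries.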

How the data were processed

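Per the labels and the methods, the authors enriched mRNA from K1 cells transfected with NC or si-NEAT1_2 siRNA, mapped the reads with TopHat2 and quantified them with RSEM. The submitters' processing notes instead list fastp 0.18.0, Bowtie2 2.2.8, HISAT2, StringTie 1.3.1 and GRCh38. The deposited expected counts are estimates per gene and library without normalization, and the authors deposited beside them FPKM values, which correct for transcript length and library size. The annotation used for counting is not given in the sources used here. Values of the group table were taken as the authors' values for NC and si-NEAT1_2.

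Groups follow the labels. The 838 unannotated loci (0.336% to 0.447% of counts) were left out. Expected counts were rounded, filtered with filterByExpr, and normalized by TMM, and the 12581 genes left were fitted with edgeR 4.0.16 (quasi-likelihood test, Benjamini-Hochberg adjustment, R 4.3.3). Called genes had a fold change of 2 or more and an adjusted p under 0.05. Alternatives were DESeq2 1.42.0, edgeR's exact test, other scalings and filters, limma-trend (limma 3.58.1) on log2(FPKM + 1) and log2(FPKM + 0.1), a replicate block, the L code, the omission of each library and, chosen after seeing the data, removal of GC and length trends (splines with 5 degrees of freedom) and omission of both second libraries. GC content, lengths and positions came from GENCODE release 29.

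The 9 genes and the lists were chosen with earlier results of these data known. Named were the 9 genes, from each list the 2 genes with the highest mean FPKM and any called, and for each of the 9 the 2 genes of highest correlation. The NF-kB targets and mitotic partners at an unadjusted p under 0.05 were named after their values were seen, as were BMF and PMAIP1. Some genes that this rule names are not reported here. On simulated data with 200 of 12581 genes changed, the test recovered 79.3% of genes changed 2-fold and 92.1% of those changed 3-fold. Of its calls on these data, 7.49% were false. Whether these rates hold for the libraries, whose fold changes moved with GC content and length, was not tested. In the libraries the lowest adjusted p over all genes was 0.0675 (edgeR's quasi-likelihood test). No column of sample values was left without a sample.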

Additional observations from a re-analysis of the deposited data

How the results depend on the processing

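BCL2, MCL1, BIRC2 and XIAP kept a log2 fold change below 0 in all 19 alternative fits on the libraries, and BIRC2 ranged from -1.03 to -0.43. Of the 9 genes 0 were called in every fit but the one without si-NEAT1_2 replicate 1, where BIRC2 was called, at -1.03, so that leaving out single libraries gave 0 to 1. Of the other pathway genes 1 was called instead of 0 with DESeq2, with the exact test, without a filter and without both second libraries, and 0 to 1 were called when single libraries were left out. That gene was BMF, except that it was BIRC6 without si-NEAT1_2 replicate 1. Over all genes 22 were higher and 45 lower with DESeq2, 36 and 39 with the exact test, 9 and 8 without a filter, 43 and 292 without si-NEAT1_2 replicate 1, 1 and 1 without si-NEAT1_2 replicate 2, 7 and 4 without both second libraries, 1 and 3 with the GC and length trends removed, and 0 and 1 with library totals alone and with limma-trend on log2(FPKM + 0.1), against 0 and 0.

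The sign of small differences depended on the processing, and the cause was not tested. BCL2L1 was reversed with library totals alone (-0.00058), with limma-trend on log2(FPKM + 1) (-0.0370) and log2(FPKM + 0.1) (-0.0372), with the trends removed (-0.20, and -0.20 with the block), without both second libraries (-0.0479) and when single libraries were left out (-0.0200 to 0.14). CASP8 was reversed with library totals alone (-0.0476), with the L code (-0.0231) and when libraries were left out (-0.0252 to 0.0308). BIRC3 was reversed with the trends removed (0.0761, and 0.11 with the block) and without both second libraries (0.11). BIRC5 was reversed with the trends removed (-0.0540, and -0.0624 with the block), without both second libraries (-0.0696) and when libraries were left out (-0.0450 to 0.22), and BCL2L11 when libraries were left out (-0.0266 to 0.24). As log2 ratios of the group table, MCL1 was at 0.68, BCL2L11 at -1.14, BIRC2 at 0.58, BIRC3 at 0.49 and BIRC5 at -0.96, all reversed.

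The methods speak of pairs of NC and si-NEAT1_2 cells without saying what a pair shared. Libraries with the same replicate number deviated from their group means with correlations of -0.290, -0.375 and -0.0199, so the values did not show the numbers to pair the samples. With the replicate block 0 of the 9 genes and 0 pathway genes were called, BIRC2 was at -0.79 (adjusted p = 0.397, edgeR), and 1449 genes had an unadjusted p under 0.05, against 3082 without it. The block changed no call. With 3 libraries per group, the 95% interval of the log2 fold change ran from -0.25 to 0.27 for CASP8 and from -1.06 to 0.25 for BIRC3, and differences inside such intervals could not be seen.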
